A study of Mus musculus with 28 samples.

Results

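The genes described here are 9 transport and enzyme genes of renal acid-base handling, out of 54446 genes listed for each library. They were chosen by their kidney fold changes of NMN against water in earlier results of these data, together with their known roles in glutamine uptake, ammonia formation, and bicarbonate and citrate transport, so their kidney values under NMN (nicotinamide mononucleotide) are a description and carry no test. Male C57BL/6 mice (C57BL6J in the article) aged 8 weeks received NMN, a precursor of NAD, or water by gavage for 7 days. The schedules were 1340 mg/kg/d, given in a single daily gavage, and 2680 mg/kg/d, given in a pair of daily gavages, so dose and number of gavages cannot be told apart. Each schedule had its own water mice. Polyadenylated RNA of kidney and liver was sequenced in 4 NMN and 4 water libraries per organ at 1340 mg/kg/d and in 3 and 3 at 2680 mg/kg/d, 28 libraries in all. Reads counted to genes ranged from 13174264 to 33872983 in the kidney and from 12688324 to 20635269 in the liver.

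Proximal tubule cells of the kidney take up glutamine and break it down in their mitochondria, which yields ammonium for the urine and new bicarbonate for the blood. Acid loading, fasting and potassium depletion are known to raise this pathway in rodents. Slc38a3 encodes the basolateral glutamine transporter SNAT3, Glud1 the mitochondrial glutamate dehydrogenase, and Pck1 the cytosolic phosphoenolpyruvate carboxykinase, which draws the remaining carbon into glucose. Slc9a3 encodes the apical sodium-proton exchanger NHE3, Slc4a4 the basolateral sodium-bicarbonate cotransporter NBCe1, and Car4 the membrane-bound carbonic anhydrase IV. Rhcg encodes an ammonia channel of the collecting duct, Slc13a2 the apical citrate carrier NaDC1, and Slc26a1 a basolateral sulfate and bicarbonate exchanger.

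The upstream sequence of 3 of these genes is shown because their kidney levels differed most by group among the 8 genes with an entry in the RefSeq promoter table used (build GRCm38.p6) that also held a searched motif. Each is the 250 bases before the annotated start, 5′ to 3′ on the gene's strand, with motif matches in capitals. The windows are chr2:173152823-173153072 on the plus strand for Pck1, chr11:78422235-78422484 on the minus strand for Slc13a2, and chr11:84957504-84957753 on the plus strand for Car4.
Pck1: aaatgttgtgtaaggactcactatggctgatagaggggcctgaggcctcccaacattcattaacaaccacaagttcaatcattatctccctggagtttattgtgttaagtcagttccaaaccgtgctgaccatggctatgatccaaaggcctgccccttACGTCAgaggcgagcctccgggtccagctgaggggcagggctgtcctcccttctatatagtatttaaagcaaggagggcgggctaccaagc
Slc13a2: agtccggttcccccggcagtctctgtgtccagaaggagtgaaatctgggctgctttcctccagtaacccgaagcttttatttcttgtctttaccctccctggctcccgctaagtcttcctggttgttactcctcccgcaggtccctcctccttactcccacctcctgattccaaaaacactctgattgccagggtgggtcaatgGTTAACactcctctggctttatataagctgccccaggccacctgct
Car4: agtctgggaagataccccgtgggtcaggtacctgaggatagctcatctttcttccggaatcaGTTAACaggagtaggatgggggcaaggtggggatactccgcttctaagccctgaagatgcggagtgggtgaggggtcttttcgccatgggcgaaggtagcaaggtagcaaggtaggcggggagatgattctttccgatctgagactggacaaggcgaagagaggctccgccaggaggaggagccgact
The capitals in Pck1 are the reverse complement of TGACGT, the core of the cAMP response element, at bases -91 to -86, which was found on either strand in 6.469% of the 32851 promoters of the table. In Slc13a2, at bases -46 to -41, and in Car4, at bases -188 to -183, the capitals are GTTAAC, a half-site of hepatocyte nuclear factor 1, found in 2.563% of promoters. The E-box CACGTG, found in 6.021%, was present upstream of Slc26a1 and Slc9a3. The motifs were chosen after the sequences were seen, and a match is a description of the letters only.

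Of the 9 genes, Slc38a3 and Glud1 were higher and Car4 was lower in every NMN kidney than in every water kidney of the same schedule, under both schedules. Over all genes tested in both schedules, 0.495% were higher and 0.736% lower in this way. Slc38a3 lies on chromosome 9 from 107650634 to 107669530 (GRCm38). At 1340 mg/kg/d, its kidney level in CPM, counts scaled to a common library size, was 57.7, 63.6, 63.8 and 59.8 in the water libraries and 160.3, 153, 105 and 108 in the NMN libraries. Under the higher schedule it was 85.0, 73.7 and 67.2 CPM in water and 163, 215 and 298 CPM in NMN. The NMN mean was 2.15 times the water mean at the lower and 2.996 times at the higher schedule, and the log2 fold change was 1.10 ± 0.13 (SE) and 1.57 ± 0.23. Among genes at 10 CPM or more, 16 of 9341 had a higher fold change at 1340 mg/kg/d and 1 of 9397 at 2680 mg/kg/d.

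**Figure D1:**
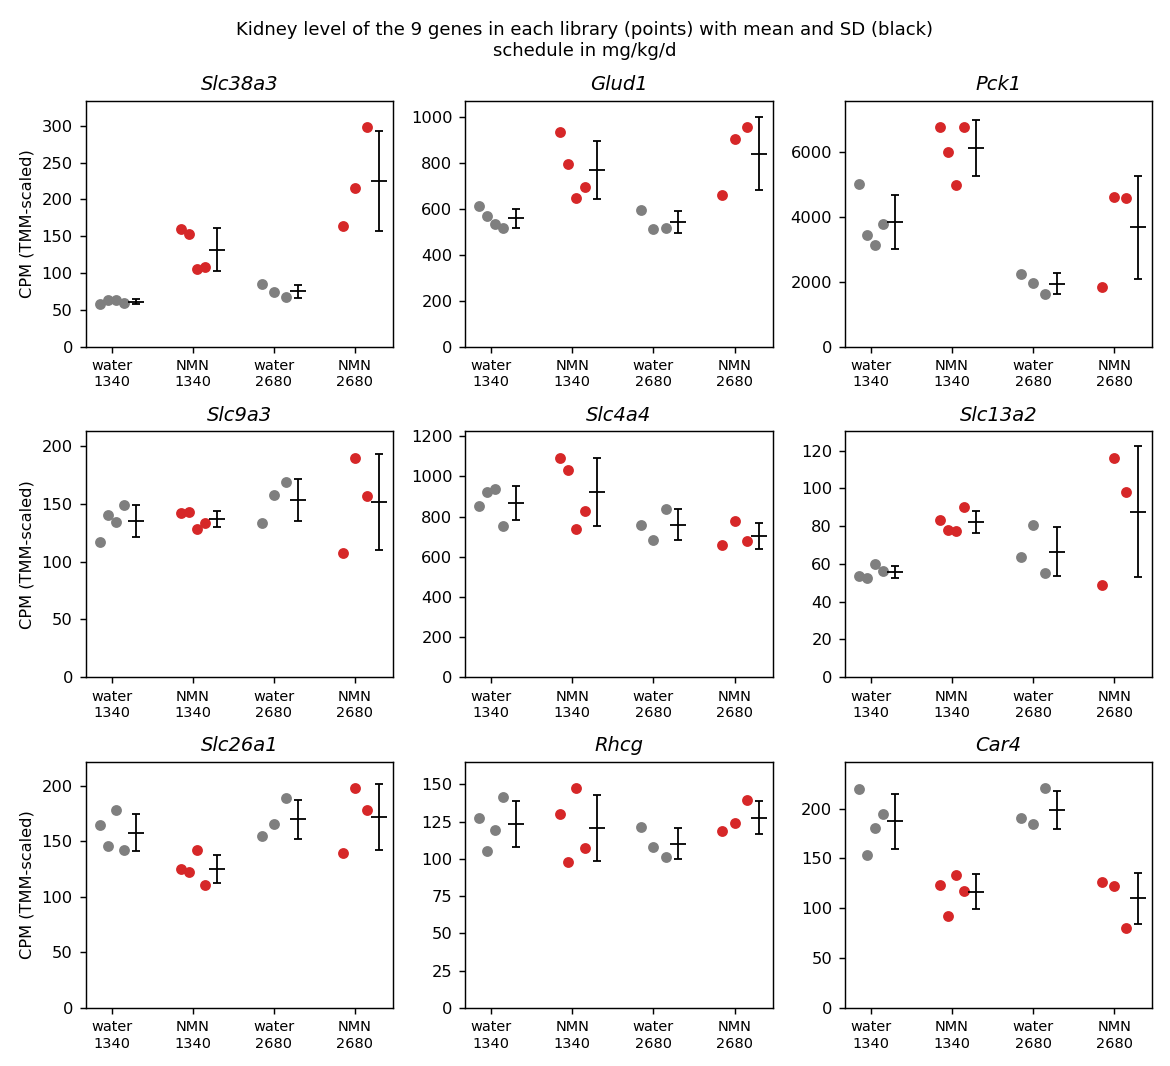
Kidney level of each of the 9 genes in CPM (vertical axis, from 0) in each library of the 4 kidney groups, water in grey and NMN in red, with the group mean and SD in black. Slc38a3 and Glud1 are higher and Car4 is lower in all NMN libraries of a schedule than in its water libraries, and 1 NMN library at 2680 mg/kg/d lies low for Pck1 (1842 CPM) and Slc13a2 (49.0 CPM).

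Glud1 (chromosome 14, 34310727 to 34345265) was at 614, 567, 533 and 517 CPM in the water kidneys and at 935, 793, 647 and 695 CPM in the NMN kidneys at 1340 mg/kg/d. In the 2680 mg/kg/d schedule it was at 596, 510.2 and 515 CPM in water and at 660.2, 905 and 955 CPM in NMN. The groups did not overlap, with log2 fold changes of 0.46 ± 0.11 and 0.62 ± 0.13 (SE). Pck1 (chromosome 2, 173153048 to 173159273), the most abundant of the 9 per kilobase of exon, was at 5038, 3444, 3138 and 3799 CPM in water and at 6771, 6006, 4976 and 6778 CPM in NMN at 1340 mg/kg/d. In the higher schedule the water libraries had 2255, 1952 and 1625 CPM and the NMN libraries 1842, 4619 and 4580 CPM. The Pck1 groups thus overlapped in both schedules, by 1 NMN library in each. Its log2 fold change was 0.67 ± 0.14 and 0.90 ± 0.40, and the latter was 1.22, 0.71 and 0.72 without NMN replicates 1, 2 and 3, respectively.

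Car4 (chromosome 11, 84957786 to 84966044), the gene of the tubular surface carbonic anhydrase, had 219, 154, 181 and 195 CPM in water and 124, 91.9, 133 and 117 CPM in NMN kidneys at 1340 mg/kg/d. It had 191, 184 and 220.4 CPM in water and 127, 123 and 80.3 CPM in NMN at 2680 mg/kg/d. Its log2 fold change was -0.68 ± 0.12 and -0.87 ± 0.17 (SE), and 33 and 20 genes at 10 CPM or more had a lower value in the respective schedules. The citrate carrier gene Slc13a2 was at 53.8, 52.7, 60.2 and 56.5 CPM in water and at 83.0, 77.9, 77.6 and 90.2 CPM in NMN at 1340 mg/kg/d. All NMN libraries lay above all water libraries there, with a log2 fold change of 0.56 ± 0.09. In the higher schedule Slc13a2 was at 63.6, 80.7 and 55.3 CPM in water and at 49.0, 116 and 97.9 CPM in NMN, and the log2 fold change of 0.38 ± 0.37 became 0.66 without NMN replicate 1 and 0.13 without NMN replicate 2. Slc13a2 shares 632 bases of exon with an antisense gene, Slc13a2os, and the counting ignored strand, so reads within the shared bases could not be assigned by strand.

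The remaining genes showed smaller values. Slc26a1 was at 165, 146, 179 and 143 CPM in water and at 125, 123, 142 and 111 CPM in NMN at 1340 mg/kg/d, without overlap. Its 3 NMN libraries at 2680 mg/kg/d, at 139.7, 198 and 178 CPM, spanned the 155, 166 and 189 CPM of the water libraries. Its log2 fold change was -0.34 ± 0.10 (SE) and -0.00 ± 0.12. Its exons overlap those of Idua on the other strand by 141 bases. The groups overlapped in both schedules for the proton exchanger gene Slc9a3, with log2 fold changes of 0.02 ± 0.09 and -0.03 ± 0.21. They also overlapped for the bicarbonate cotransporter gene Slc4a4, at 0.09 ± 0.12 and -0.13 ± 0.10. For the ammonia channel gene Rhcg the values were -0.03 ± 0.12 and 0.20 ± 0.09, again with overlapping groups.

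The groups did not overlap for 5 of the 9 genes at 1340 mg/kg/d, against 4.97% of tested genes, and for 3 of the 9 at 2680 mg/kg/d, against 17.5%. Because the genes were chosen from these contrasts, nothing is read from these counts. The difference between the 2680 and 1340 mg/kg/d log2 fold changes was 0.46 ± 0.26 (SE) for Slc38a3, 0.16 ± 0.18 for Glud1 and -0.19 ± 0.22 for Car4.

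The order of Slc38a3 levels across the 8 groups is given as CPM, scaled within each organ. Liver groups held the 4 highest means, from 1052 to 1770.3 CPM, and each overlapped the next. Kidney means followed at 226 ± 68.1 CPM (SD, n = 3) for NMN at 2680 mg/kg/d, 132 ± 28.9 (n = 4) for NMN at 1340 mg/kg/d, 75.3 ± 9.02 (n = 3) for water at 2680 mg/kg/d and 61.2 ± 2.97 (n = 4) for water at 1340 mg/kg/d. No kidney group overlapped its neighbour in this order. Differences between schedules in this order were not tested. The schedules also differed in the mitochondrial share of counts, at 9.71% and 20.6% in water kidneys at 1340 and 2680 mg/kg/d. Per kilobase of exon, Slc38a3 was the lowest of the 9 genes in the 1340 mg/kg/d water kidneys at 11.6 CPM per kilobase, whereas Pck1 was the highest at 1124. Glud1 followed at 133 and Car4 at 95.1 CPM per kilobase, the latter overlapping Slc4a4 at 80.0. Rhcg at 55.3, Slc26a1 at 39.0, Slc9a3 at 24.6 and Slc13a2 at 23.1 CPM per kilobase came next, the last pair overlapping.

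Across the 14 kidney libraries, each taken as its deviation from the mean of its schedule, the 5 genes of 14547 whose log2 CPM was most like that of Slc38a3 included Asb11 (Pearson r = 0.95), Glud1 (0.95) and Cdo1 (0.93). Pck1 stood at place 56 (0.82) and Slc13a2 at place 354 (0.68), while Car4 had r = -0.94. These libraries share the NMN and water grouping and no p is attached. The library with the highest Slc38a3 level, NMN replicate 3 at 2680 mg/kg/d, had the highest Glud1 level, at 955 CPM, and the lowest Car4 level, at 80.3 CPM. NMN replicate 1 of that schedule, at 163 CPM of Slc38a3, had 660.2 CPM of Glud1, near the lowest NMN library (647 CPM).

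**Figure D2:**
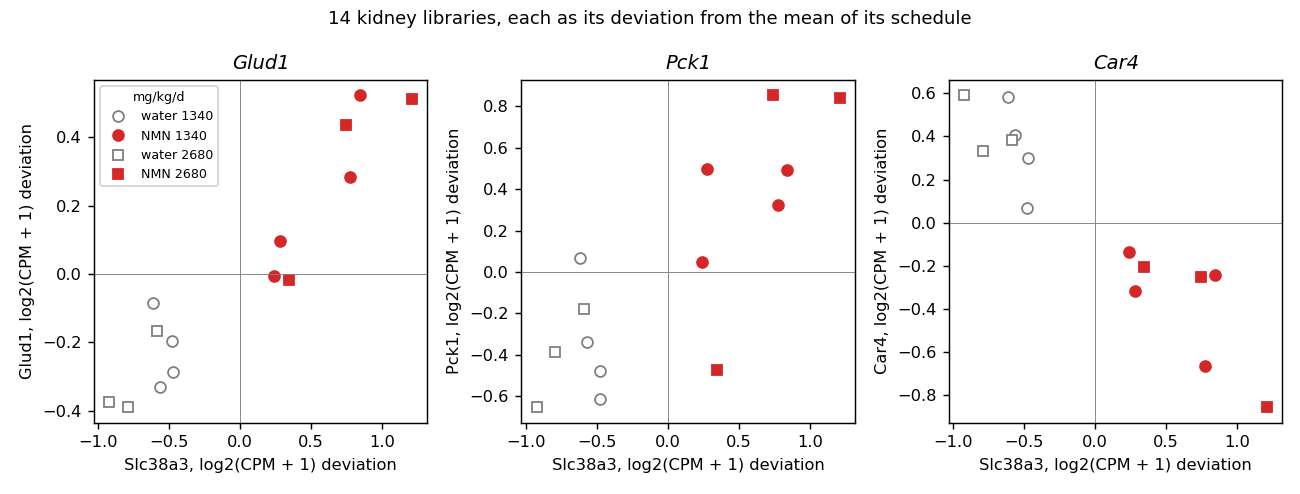
Deviation of log2(CPM + 1) from the schedule mean for Slc38a3 (horizontal axis) against Glud1, Pck1 and Car4 (vertical axes) in 14 kidney libraries, with water as open and NMN as filled symbols, and 1340 as circles and 2680 mg/kg/d as squares. Glud1 follows Slc38a3 (r = 0.95), Car4 runs opposite (r = -0.94), and for Pck1 (r = 0.82) 1 NMN library of each schedule lies among the water libraries. The deviations keep the NMN against water difference by which these genes were chosen.

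Lists of marker genes for kidney cell types were summed in the same libraries. The 5 proximal tubule markers, of which the phosphate carrier gene Slc34a1 was the most abundant, summed to 9645 ± 757 CPM (SD, n = 4) in water and 8301 ± 519 in NMN at 1340 mg/kg/d. The sums were 8596 ± 396 (n = 3) and 7235 ± 897 CPM at 2680 mg/kg/d. The 3 markers of the first proximal segment went from 878 to 587 CPM and from 668 to 538 CPM, and the 4 markers of the thick ascending limb from 3098 to 3880 and from 2671 to 2937 CPM. None of the 59 tested marker genes passed an adjusted p under 0.05 in either schedule by edgeR, with 5 higher and 8 lower at an unadjusted p under 0.05 at 1340 mg/kg/d and 5 and 5 at 2680 mg/kg/d, beside 8.94% and 11.1% of all tested genes. Slc34a1 made up most of the proximal tubule sum, at 6357 CPM in water and 5141 CPM in NMN at 1340 mg/kg/d and at 5213 and 4185 CPM at 2680 mg/kg/d. The log2 fold changes of Lrp2, Cubn, Hnf4a and Slc5a12 in that list were -0.06, 0.02, -0.04 and -0.21 at 1340 mg/kg/d and -0.29, 0.05, 0.01 and -0.20 at 2680 mg/kg/d. The 4 markers of the third proximal segment had medians of -0.23 and -0.22, and the 4 podocyte markers, all above 0 in both schedules, 0.32 and 0.35. The part of cell makeup in these values was not tested, and in bulk tissue fewer cells of a type and less RNA per cell cannot be told apart. The hepatocyte gene Alb was at 83.5 CPM in water and 96.4 CPM in NMN kidneys at 1340 mg/kg/d and at 11.3 and 14.8 CPM at 2680 mg/kg/d, against 73278 CPM in the livers of water mice at 1340 mg/kg/d.

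Other acid-base genes were taken as 7 lists of 75 genes, of which 74 were tested in the kidney. None passed an adjusted p under 0.05 at 1340 mg/kg/d by edgeR's quasi-likelihood test, which 0.12% of 14972 tested genes passed, with 9 higher and 6 lower at an unadjusted p under 0.05, which 8.94% of all tested genes passed, and 3 called by DESeq2. In the higher schedule 1 gene fell, where 0.4% of 15245 tested genes passed and 0.282% fell, DESeq2 called 4, and 9 were higher and 5 lower at an unadjusted p under 0.05, which 11.1% of all tested genes passed. Over the lists the median log2 fold change was 0.06 and 0.09, beside 0.00 over all tested genes in each schedule, and 45 and 47 of the 74 genes lay above 0, beside 50.3% and 50.8% of all tested genes. That 1 gene was Cltrn, which encodes collectrin, a partner protein of apical amino acid transporters. It was at 1212, 1300.3 and 1317 CPM in water and at 888, 910.3 and 729 CPM in NMN at 2680 mg/kg/d. The groups did not overlap, and the log2 fold change was -0.62 ± 0.10 (SE, edgeR adjusted p = 0.0313). The adjusted p rose to 0.109 without NMN replicate 3 and to 0.0635, 0.122 and 0.198 without water replicates 1, 2 and 3, respectively. Without NMN replicate 1, in contrast, 8 of the list genes passed. At 1340 mg/kg/d Cltrn was at 1263, 1092, 1052 and 1240.3 CPM in water and at 982, 719, 904 and 817 CPM in NMN, with a log2 fold change of -0.44 ± 0.11 (edgeR adjusted p = 0.113).

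Of the list for ammonia formation in mitochondria, none of 14 tested genes passed in either schedule. Their median log2 fold change was 0.10 at 1340 mg/kg/d, with 9 above 0, and 0.12 at 2680 mg/kg/d, with 14 above 0. At 2680 mg/kg/d they ran from 0.0004 to 0.47. Not all of these genes form ammonia, since the list also holds carrier genes and Glul, the glutamine synthetase gene. Glul stood at 0.52 ± 0.16 (SE, edgeR adjusted p = 0.304) at 1340 mg/kg/d and at 0.05 ± 0.24 (adjusted p = 0.962) at 2680 mg/kg/d. Gpt, an alanine aminotransferase gene, stood at 0.30 ± 0.13 at 1340 mg/kg/d (edgeR adjusted p = 0.487) and at 0.47 ± 0.10 at 2680 mg/kg/d (edgeR adjusted p = 0.0781), with NMN libraries at 25.4, 28.4 and 30.7 CPM above water libraries at 21.3, 20.2 and 18.7 CPM.

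In the ammonium transport list, none of 7 genes passed, and the medians were 0.21 and 0.33. Slc12a1, the gene of the thick limb cotransporter NKCC2 and also a marker of that segment, had a log2 fold change of 0.43 ± 0.10 (SE, edgeR adjusted p = 0.117) at 1340 mg/kg/d and -0.04 ± 0.11 (adjusted p = 0.934) at 2680 mg/kg/d. The Slc12a1 difference between the schedules was -0.47 ± 0.16 (edgeR unadjusted p = 0.0075, adjusted p = 0.999). Atp1b1, the gene of the sodium pump beta subunit, had 0.31 ± 0.09 at 1340 mg/kg/d (edgeR adjusted p = 0.237) and 0.25 ± 0.12 at 2680 mg/kg/d (adjusted p = 0.468). The medians of the glutamine entry list were -0.11 and 0.00, with 7 and 5 of 10 genes below 0, and those of the acid sensing list 0.03 and -0.09, with 4 and 7 of 11 below 0. The medians of the bicarbonate and proton list were 0.01 and 0.08, those of the citrate and sulfate list 0.10 and 0.12, and those of the gluconeogenesis list 0.10 and -0.01. Car5b, a mitochondrial carbonic anhydrase gene, had -0.11 ± 0.11 at 1340 mg/kg/d (edgeR adjusted p = 0.817) and -0.34 ± 0.08 at 2680 mg/kg/d (adjusted p = 0.0923). The anion exchanger gene Slc26a6 had -0.40 ± 0.17 at 1340 mg/kg/d (edgeR adjusted p = 0.484) and, in the other direction, 0.70 ± 0.26 at 2680 mg/kg/d (adjusted p = 0.347). Its difference between the schedules was 1.09 ± 0.30 (edgeR unadjusted p = 0.0016, adjusted p = 0.752). Slc7a7, the gene of a basolateral amino acid exchanger, had -0.48 ± 0.18 at 1340 mg/kg/d (edgeR adjusted p = 0.474) and -0.09 ± 0.09 at 2680 mg/kg/d (adjusted p = 0.767). Hnrnpd, the gene of an RNA-binding protein in the acid sensing list, had -0.01 ± 0.11 at 1340 mg/kg/d (edgeR adjusted p = 0.987) and -0.29 ± 0.09 at 2680 mg/kg/d (adjusted p = 0.253). None of the 75 genes passed the test of a difference between the schedules in the kidney by edgeR, which 0.00625% of 15989 genes passed, and DESeq2 called 0 of them. At an unadjusted p under 0.05, 2 were higher and 2 lower, beside 4.62% of all genes.

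**Figure D3:**
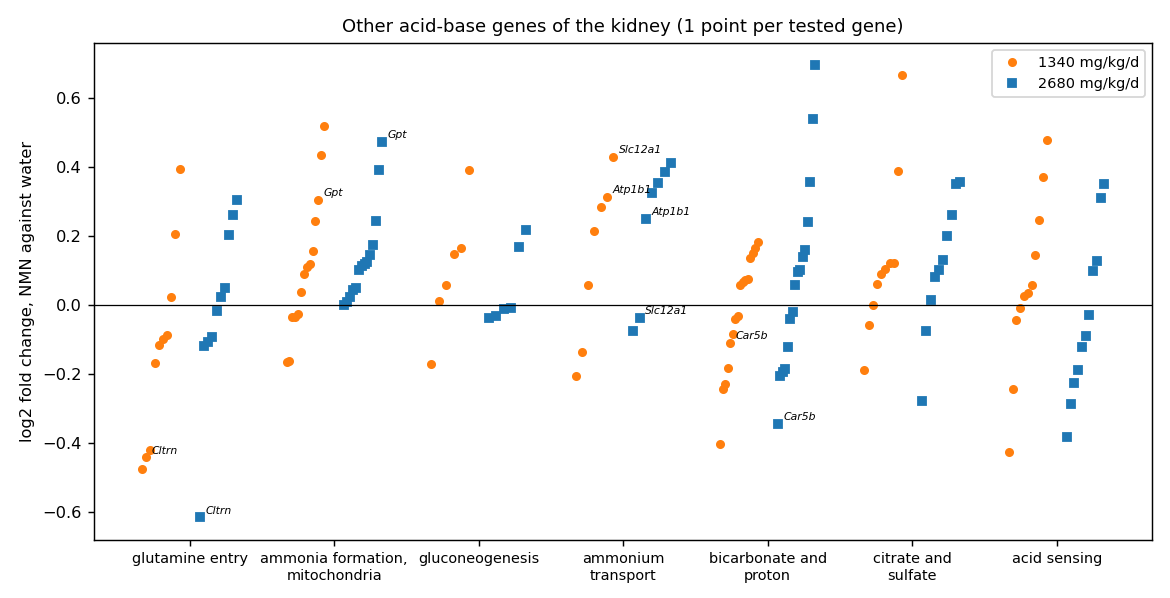
log2 fold change of NMN against water in the kidney (vertical axis) for the 74 tested genes of the 7 acid-base lists (horizontal axis), as orange circles at 1340 and blue squares at 2680 mg/kg/d, sorted by value within each list. The lowest point is Cltrn at 2680 mg/kg/d (-0.62). All 14 tested genes of the ammonia formation list lie above 0 in that schedule, from 0.0004 to 0.47.

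The liver offered a comparison that did not choose the genes. There Slc9a3, Rhcg and Car4 had between 0 and 7 counts per library and were not tested. None of the other 6 genes passed at 1340 mg/kg/d by edgeR, where 0.0161% of 12449 genes passed, with 2 of the 6 at an unadjusted p under 0.05, beside 6.86% of all genes, and 0 called by DESeq2. Slc4a4 was higher there in all 4 NMN livers, at 68.3, 80.9, 61.0 and 59.1 CPM against 30.6, 43.5, 57.5 and 45.1 CPM in water, but its log2 fold change of 0.59 ± 0.18 (SE) had an adjusted p of 0.462 in edgeR. All NMN livers lay above all water livers for 2.08% of the genes tested there.

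At 2680 mg/kg/d, 2 of the 6 genes fell in the liver, where 4.03% of 12477 tested genes fell. Glud1 was at 1291, 1112 and 1138 CPM in water and at 612, 626 and 764 CPM in NMN livers. These groups did not overlap, and the log2 fold change was -0.84 ± 0.14 (SE, edgeR adjusted p = 0.00672). Slc26a1 went from 191, 231 and 212 CPM to 129, 145 and 153 CPM, a log2 fold change of -0.59 ± 0.14 (edgeR adjusted p = 0.0307). That adjusted p was 0.0610 and 0.0863 without NMN replicates 1 and 3, and 0.0541, 0.136 and 0.0760 without water replicates 1, 2 and 3, respectively. Pck1 was at 253, 485 and 838 CPM in water and at 912, 1246 and 1129 CPM in NMN, without overlap, at 1.04 ± 0.42 (edgeR adjusted p = 0.193, and 0.0435 in the fit with a replicate block). Replicate numbers were not taken to pair NMN and water livers, so that block has no stated basis. Without water replicate 3 the Pck1 value was 1.56 (edgeR adjusted p = 0.0291). All NMN livers lay above all water livers for 14.8% of tested genes and below for 14.7%. Slc38a3 did not pass in the liver, at -0.26 ± 0.22 (edgeR adjusted p = 0.867) and -0.34 ± 0.21 (adjusted p = 0.361), with 95% intervals from -0.74 to 0.23 and from -0.81 to 0.14. Slc4a4 at 0.35 ± 0.21 (edgeR adjusted p = 0.330) and Slc13a2 at 0.17 ± 0.48 (adjusted p = 0.871) did not pass either. With a library left out at 2680 mg/kg/d, Slc13a2 ran from -0.64 to 0.50 and Slc4a4 from 0.20 to 0.58. Slc38a3 ran from -0.57 to -0.12 in the same fits.

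**Figure D4:**
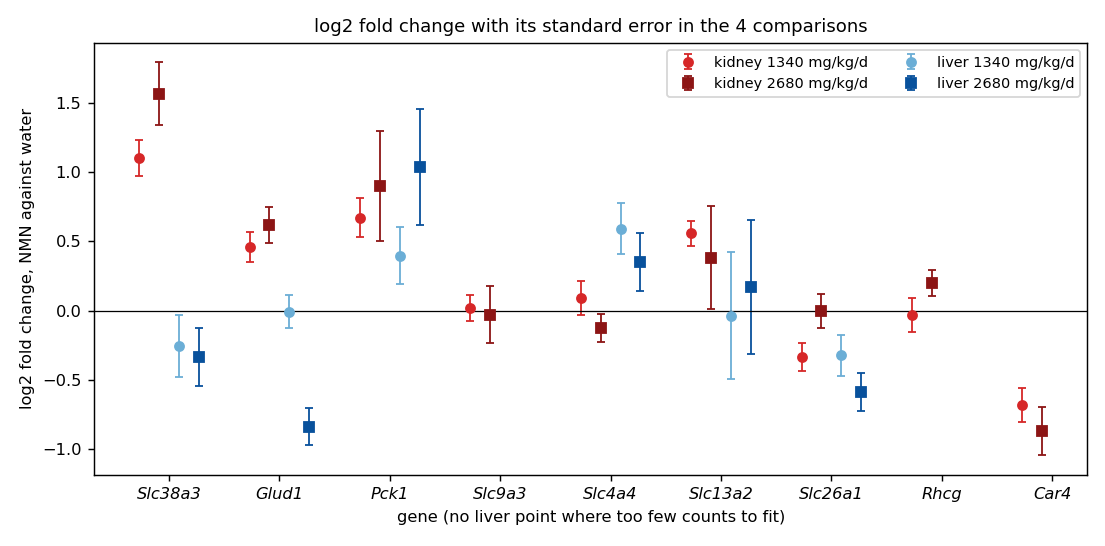
log2 fold change of NMN against water (vertical axis) with its SE for the 9 genes in kidney (red) and liver (blue) at 1340 (circles) and 2680 mg/kg/d (squares). Slc38a3 lies at 1.10 and 1.57 in the kidney and at -0.26 and -0.34 in the liver, and Glud1 at 0.62 in the kidney and -0.84 in the liver at 2680 mg/kg/d.

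Of the 75 other acid-base genes, none of the 65 tested in the liver passed at 1340 mg/kg/d by edgeR, and DESeq2 called 0. Over all tested genes 0.0161% passed by edgeR. At an unadjusted p under 0.05, 2 list genes were higher and 2 lower in that schedule, beside 6.86% of all tested genes. Of 58 tested at 2680 mg/kg/d, 1 rose and 10 fell, against 3.05% and 4.03% of all tested genes. The median of the 58 was -0.23, beside 0.00 for all tested genes. The 5 hepatocyte markers had a median of -0.36 in that comparison, with 4 below 0 and Apob above it at 0.26. Among these markers only Ttr passed, at -0.97 (edgeR adjusted p = 0.00227). The part of cell makeup in these liver values was not tested. The glutamine transporter gene Slc38a2 rose by 1.01 ± 0.24 on the log2 scale (edgeR adjusted p = 0.0346). That adjusted p was 0.111 without NMN replicate 3, and 0.121 and 0.138 without water replicates 1 and 2, respectively. Fbp1, the gene of the gluconeogenic fructose bisphosphatase, had -0.77 ± 0.12 (edgeR adjusted p = 0.00618). Glul, the glutamine synthetase gene, had -1.32 ± 0.22 (edgeR adjusted p = 0.00831), and Acly, the ATP citrate lyase gene, -1.03 ± 0.19 (adjusted p = 0.0118).

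Kidney and liver of the 7 water mice per organ differed for 8 of the 9 genes, where 77.9% of 14331 tested genes differed, 41.2% higher and 36.7% lower in the kidney. Slc38a3 was lower in the kidney by a log2 value of -5.38 ± 0.20 (SE, edgeR adjusted p = 4.31e-14). Glud1 at -1.97 ± 0.08 and Slc26a1 at -1.18 ± 0.08 were also lower in the kidney. Slc4a4 at 3.27 ± 0.14 and Slc13a2 at 3.34 ± 0.27 were higher. Rhcg, Car4 and Slc9a3 were higher in the kidney too, where they were at 101 to 220.4 CPM in every water library, and their fitted log2 values are not given because liver counts were near 0. Pck1 at 0.39 ± 0.24 did not pass (edgeR adjusted p = 0.149) in this fit, which did not pair the organs by replicate number. The tissue labels matched their markers, with Slc34a1 at 6357 CPM in the kidney and 8.30 CPM in the liver of water mice at 1340 mg/kg/d.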

How the data were processed

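Kidney and liver polyA libraries were aligned by the authors with STAR and counted per gene with HTSeq, without regard to strand, and the authors deposited whole-number counts without normalization. The build was not settled from the sources used here. The 5 summary lines of HTSeq were left out, those for no feature, ambiguous and multiply aligned reads amounting to 22.9 to 29.2% in kidney and 18.6 to 29.3% in liver. Gene identifiers were matched to GENCODE M21 (53229 with version, 1180 without, 37 unmatched).

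The counts were fitted with edgeR 4.0.16 under R 4.3.3 (filterByExpr, TMM, robust quasi-likelihood test, Benjamini-Hochberg adjustment over all tested genes, threshold 0.05), and with DESeq2 1.42.0 as an alternative. Each organ and schedule was fitted alone, the organ comparison on 14 water libraries with schedule as a term, and the difference between schedules on 14 kidney libraries. Levels are CPM with TMM factors over the 14 libraries of an organ, per kilobase of merged exons where stated. An SE was taken as the size of the log2 value over the root of its F statistic. The fit was tested on simulated data.

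The 9 genes, the lists and the motifs were chosen with earlier results of these data known. Named genes were the 9, and in the kidney the list genes past the threshold or else the 3 with the smallest p in each direction at 1 CPM or more, and in the liver up to 3 past the threshold in each direction. Some genes that this rule names are not reported here. Replicates are labelled by number only, so p-values measure the spread between these samples. Numbers were taken to pair samples only where r between the deviations of every same-numbered pair was over 0.1. This held for kidney and liver of water mice (mean r = 0.18, 7 pairs) and for none of the NMN comparisons (mean r = 0.05 and 0.01 in kidney and 0.04 and 0.17 in liver at 1340 and 2680 mg/kg/d), although in liver at 2680 mg/kg/d all 3 pairs were positive (0.06, 0.20 and 0.24). The organ comparison given here was fitted without pairing kidney and liver by number. No pair of libraries agreed within sampling noise. At 1340 mg/kg/d NMN kidneys were sequenced less deeply (13174264 to 14006288 counts) than water kidneys (15354270 to 15696435), and at 2680 mg/kg/d more deeply (22922994 to 33872983 against 16358886 to 18983689). The mitochondrial share of counts was 9.48 and 9.71% in NMN and water kidneys at 1340 mg/kg/d and 20.3 and 20.6% at 2680 mg/kg/d.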

Additional observations from a re-analysis of the deposited data

Results flagged for a closer look

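Glud1 moved in opposite directions in kidney and liver at 2680 mg/kg/d in all 3 NMN libraries of each organ, and the log2 fold changes differed by 1.46; the difference was not tested. In single libraries, Cltrn was at 1.80 CPM in NMN liver replicate 4 at 1340 mg/kg/d, with the others between 1.17 and 1.27. Slc26a6 was at 7.90 CPM in water kidney replicate 4 at 1340 mg/kg/d, with the others between 10.03 and 10.2. By Dixon's criterion these libraries stood apart from their groups. Only groups of 4 libraries, those at 1340 mg/kg/d, were examined, so no library at 2680 mg/kg/d could be flagged. Of 78 such groups examined for the genes reported here 2 did so (2.56%), no more than the 1 in 20 or so that chance gives.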

How the results depend on the processing

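The kidney log2 fold changes of the 9 genes moved by less than 1 SD of the replicates' log2 CPM, pooled within groups, under every alternative run. With a library left out some moved by more than their SE, such as Slc38a3 at 2680 mg/kg/d from 1.57 to 1.32 and Pck1 at 1340 mg/kg/d from 0.67 to 0.84. Those of Slc38a3, Glud1, Pck1, Slc4a4, Slc13a2 and Car4 kept their sign within each schedule, as did Slc26a1 at 1340 and Rhcg at 2680 mg/kg/d. Values near 0 changed sign with a library left out, ranging from -0.04 to 0.07 for Slc9a3 and from -0.15 to 0.05 for Rhcg at 1340 mg/kg/d, and from -0.22 to 0.15 for Slc9a3 and from -0.11 to 0.12 for Slc26a1 at 2680 mg/kg/d. Counts of genes moved too. In the kidney at 1340 mg/kg/d 18 genes passed, against 159 with DESeq2, 269 without a filter, 75 with the replicate block and 5 to 67 with a library left out; of the other acid-base genes 0 passed, against 3, 7, 3 and 0 to 1. At 2680 mg/kg/d 61 passed, against 35 with all 14 libraries, 236 with DESeq2, 514 without a filter, 92 with the replicate block and 3 to 191 with a library left out; of the other genes 1 passed, against 4 with DESeq2, 9 without a filter and 0 to 8 with a library left out. In the liver at 1340 mg/kg/d 2 passed, against 6 with all 14 libraries, 74 with DESeq2, 44 without a filter, 16 with the replicate block and 0 to 18 with a library left out. At 2680 mg/kg/d 883 passed, against 135 at an adjusted p under 0.01 with a fold over 2, 1448 with DESeq2, 1785 without a filter and 211 to 1308 with a library left out. There 2 of the 9 genes passed, against 0 at the stricter threshold and 1 to 2 with a library left out, and 11 other genes passed, against 1 at the stricter threshold, 17 without a filter and 3 to 13 with a library left out. Between organs 8 of the 9 genes passed, against 5 with at least 10 counts in every library, a filter that drops the genes near 0 in liver. For the difference between schedules 1 gene passed, against 0 with at least 10 counts, 10 with DESeq2, 106 without a filter, 2 with the replicate block and 0 to 1 with a library left out, and of the other genes 0, against 1 without a filter. The causes were not tested. With the block, Slc12a1 and Cltrn were among the genes that passed in the kidney at 1340 mg/kg/d (edgeR adjusted p = 0.0432 and 0.0435). Replicate numbers were not taken to pair NMN and water kidneys there (mean r = 0.05), so the block has no stated basis.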
